A study of Rattus norvegicus with 6 samples.

Results

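Cd74, RT1-Da and RT1-Ba are genes of the MHC class II pathway, and their messenger RNA was followed in healing rat achilles tendon. They were chosen by gene ID (ENSRNOG00000018735, ENSRNOG00000032844 and ENSRNOG00000000451), as 3 of the 22250 gene IDs in the count table. The choice did not use their values as a criterion, but it was made with earlier results of these data known. All 3 passed the filter on low counts that left 15122 genes for the test. The tendons came from Sprague-Dawley rats, 6 weeks old at the start by the methods of the study, whose achilles tendon was cut at its midpoint and sutured at once. The tendon injury model group (3 libraries) is labelled as not treated, and the celecoxib + lactoferrin treatment group (3 libraries) was given 2 agents by daily injection at the injured site. These were 10 mg/kg of celecoxib, which blocks cyclooxygenase-2, and 2 g/kg of lactoferrin, a milk protein that binds iron. Both groups carried the same injury and were sampled on day 14, which the methods count from surgery and the labels give as an age. A vehicle injection in the model group is not described, and animals given 1 agent alone were not analysed here, so the injection, celecoxib and lactoferrin cannot be told apart in this comparison.

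MHC class II molecules sit on the surface of antigen-presenting cells, such as macrophages, dendritic cells and B cells, and show peptides taken up from outside the cell to CD4+ T cells. Each molecule is a pair of an alpha and a beta chain. Cd74 encodes the invariant chain, which escorts newly made pairs to the endosome and keeps their groove closed until peptide is loaded. RT1-Da encodes the alpha chain of the rat D molecule and RT1-Ba the alpha chain of the rat B molecule. The class II transactivator Ciita drives these genes together through promoter elements known as the X and Y boxes, and interferon gamma induces Ciita in many cell types. In a bulk tissue, fewer antigen-presenting cells and less class II RNA per cell cannot be told apart.

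Because the question was whether the genes move together, the promoter stretch around the X box core of each gene is shown first. The table of promoter sequences from RefSeq (build GRCr8, not the Rnor_6.0 build of the alignment) matched all 3 genes, and each stretch below is on the + strand, ends before the annotated start of the transcript and is lined up on the same letters. Capitals mark TNGCAAC, taken here as the core of the X box, and ATTGG, the reverse complement of the CCAAT motif of the Y box. Both motifs were chosen with the sequences in view.
Cd74, chr18:56527114-56527193: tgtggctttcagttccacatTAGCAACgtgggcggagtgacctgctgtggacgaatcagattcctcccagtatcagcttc
RT1-Da, chr20:4515311-4515390: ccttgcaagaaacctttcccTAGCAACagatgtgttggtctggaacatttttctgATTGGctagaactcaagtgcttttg
RT1-Ba, chr20:4576959-4577038: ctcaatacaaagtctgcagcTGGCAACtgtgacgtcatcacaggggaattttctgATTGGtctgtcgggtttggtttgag

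The core began 72 bases before the annotated start in Cd74, 84 bases before it in RT1-Da and 78 bases before it in RT1-Ba. In RT1-Da and in RT1-Ba, ATTGG followed after the same gap of 28 bases. In Cd74 ATTGG was not found after the core, and its 1 CCAAT match lay further upstream, 189 bases before the start. Searched on both strands of 300 bases around each start, TNGCAAC occurred in 10.4% of 33469 promoters and CCAAT in 37.5%. The core followed by ATTGG at a gap of 20 to 35 bases, on either strand, occurred in 75 promoters (0.224%), RT1-Da and RT1-Ba among them. This range of gaps holds the 28 bases seen in both genes, so the share is not independent of them. These matches describe letters and do not show that a factor was bound.

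The 6 libraries held between 34546567 and 47181784 counts, and TMM factors lay between 0.907 and 1.09. The 3 deeper libraries (at least 45097576 counts) came from model rats 1 and 2 and from treated rat 3. No pair of libraries was a duplicate, since the chi-square per degree of freedom was at least 86.9. The tendon label was not checked against marker genes here, because only the IDs of Cd74, RT1-Da and RT1-Ba were paired with symbols.

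Levels of all 3 class II genes overlapped between the tendon injury model group and the celecoxib + lactoferrin treatment group. In mean CPM, each difference between the groups was smaller than the SD among treated rats. For RT1-Da and RT1-Ba the difference was larger than the SD among injury model rats. In 1 treated rat, replicate 2, all 3 genes were at their lowest, while the other treated rats lay within or near the range of the injury model group for Cd74 and RT1-Da. RT1-Ba parted from the other genes in treated replicate 3, where it was low while Cd74 and RT1-Da were high.

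Cd74, the invariant chain, had 12807, 11436 and 6095 counts in injury model replicates 1, 2 and 3. It had 8233, 2256 and 14670 counts in celecoxib + lactoferrin replicates 1, 2 and 3. After TMM normalization, which corrects CPM (counts scaled to the size of the library) for differences in library composition, the levels were 299, 238 and 181 CPM in the injury model replicates and 240, 65.4 and 291 CPM in the treated ones. The groups overlapped, with treated replicates 1 and 3 inside the range of the injury model rats and treated replicate 2 below it. Injury model rats had a mean level of 239 ± 59.4 CPM (SD, n = 3) and treated rats one of 199 ± 118 CPM (SD, n = 3). The log2 fold change of treated over injury model rats was -0.27 (standard error 0.53, adjusted p = 0.998, edgeR's quasi-likelihood test with Benjamini-Hochberg adjustment). Its 95% interval ran from 0.346-fold to 2.0-fold.

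RT1-Da, the alpha chain of the D molecule, had 2543, 3729 and 2140 counts in injury model replicates 1, 2 and 3 and 1859, 644 and 4357 counts in the treated replicates 1, 2 and 3. Its levels were 59.5, 77.6 and 63.4 CPM in the injury model group, the narrowest relative spread of the 3 genes in either group. They were 54.3, 18.7 and 86.4 CPM in the treated group. Treated replicate 3 was above every injury model rat and treated replicates 1 and 2 were below every one, so that the treated rats enclosed the range of the injury model rats. The means were 66.8 ± 9.54 CPM (SD, n = 3) and 53.1 ± 33.9 CPM (SD, n = 3). The log2 fold change of treated over injury model rats was -0.33 with a standard error of 0.51 (adjusted p = 0.998, edgeR) and a 95% interval from 0.338-fold to 1.87-fold.

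RT1-Ba, the alpha chain of the B molecule, had 1079, 699 and 454 counts in the injury model replicates and 758, 164 and 336 counts in the treated replicates. Its levels were 25.2, 14.5 and 13.5 CPM in the injury model replicates. In the treated replicates they were 22.1, 4.75 and 6.67 CPM. Treated replicates 2 and 3 were below every injury model rat, and treated replicate 1 was within their range. The means were 17.7 ± 6.50 CPM (SD, n = 3) and 11.2 ± 9.53 CPM (SD, n = 3). Its log2 fold change was -0.67 with a standard error of 0.62 (adjusted p = 0.998, edgeR) and a 95% interval from 0.222-fold to 1.79-fold. Without treated replicate 1 it was -1.63 (unadjusted p = 0.0026, adjusted p = 0.999, edgeR). Counting error was small beside these differences between rats, since even the lowest count, 164, had an exact 95% Poisson interval from 140 to 191 (counting error only).

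**Figure D1:**
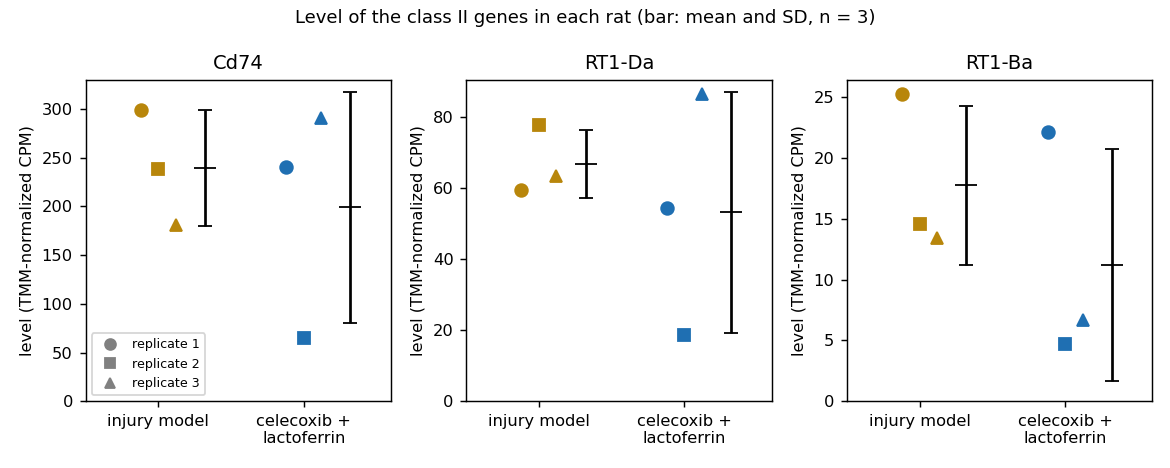
Level of each gene in TMM-normalized CPM (y axis, from 0) for the 3 rats of each group, with the mean and SD (n = 3) as bars. Treated replicate 2 (square) was the lowest rat for all 3 genes, and treated replicate 3 (triangle) was the highest for RT1-Da but the second lowest for RT1-Ba.

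By edgeR, 0 of the 3 genes had an unadjusted p-value under 0.05, the threshold of the study, where 2.61% of the 15122 genes tested had one. After adjustment 0 of the 3 had a p-value under 0.05, where 0.00661% of the genes tested had one. DESeq2 placed 3.21% of 17992 genes under the unadjusted threshold and 26 genes under the adjusted one. With limma's voom these were 495 and 3 of the 15122 genes. Both tools also gave 0 of the 3 class II genes at both thresholds. The ranges of the groups overlapped for all 3 genes, whereas they were separate for 7.8% of the genes tested. The intervals do not show that the genes were alike in both groups, since that of Cd74 reaches from 0.346-fold to 2.0-fold. The log2 fold changes were all below 0, with a median of -0.33 against 0.0067 over all genes tested, but the direction depended on 1 rat for both of the more abundant genes. Without treated replicate 2 the log2 fold change was 0.15 for Cd74 and 0.07 for RT1-Da, and it was -0.31 for RT1-Ba.

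**Figure D2:**
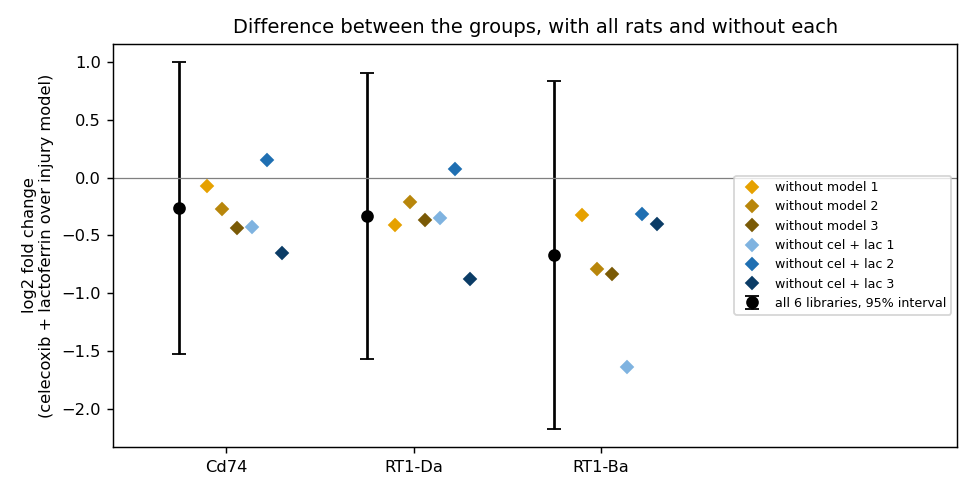
Log2 fold change of the celecoxib + lactoferrin treatment group over the injury model group (y axis) for each gene, with all 6 libraries (black, 95% interval derived from edgeR's test) and without each library in turn (diamonds). All 3 intervals include 0, and the values without treated replicate 2 lie above 0 for Cd74 and RT1-Da.

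The class II genes were widely spread between treated rats and less so between injury model rats. The coefficient of variation of Cd74 was 24.8% among injury model rats and 59.5% among treated rats. That of RT1-Da was 14.3% and 63.8%, and that of RT1-Ba was 36.7% and 85.2%. The highest treated rat exceeded the lowest by 4.45-fold for Cd74, 4.63-fold for RT1-Da and 4.66-fold for RT1-Ba, whereas in the injury model group these folds were 1.66, 1.31 and 1.88. Without treated replicate 2 (chosen after seeing the data) the fold between the remaining treated rats was 1.21 for Cd74, 1.59 for RT1-Da and 3.32 for RT1-Ba. Over all genes tested, 59.3% had a larger SD of log2 CPM among treated than among injury model rats. The SD among treated rats was larger than that of Cd74 in 7.92% of genes, larger than that of RT1-Da in 8.38% and larger than that of RT1-Ba in 8.03%. The difference in spread between the groups was not tested.

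Over all 6 libraries the SD of log2 CPM was 0.82 for Cd74, 0.79 for RT1-Da and 0.95 for RT1-Ba. Among genes within 0.5 log2 CPM of the same mean level, 95.7% of 562 genes had a smaller SD than Cd74. The share with a smaller SD was 98.0% of 2081 genes for RT1-Da and 96.3% of 2401 genes for RT1-Ba. The biological coefficient of variation that edgeR estimated within groups was 46.4%, 44.2% and 53.2% for Cd74, RT1-Da and RT1-Ba, and 39.3% in common over all genes. Its trend over genes at the level of each was lower, at 31.4%, 26.8% and 32.7% in the same order.

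Treated replicate 2 carried much of this spread for Cd74 and RT1-Da, and less of it for RT1-Ba, which was also low in treated replicate 3. Without it the SD of log2 CPM over the other 5 libraries was 0.29 for Cd74, 0.28 for RT1-Da and 0.75 for RT1-Ba. Against the median of the other 5 libraries, Cd74 was 3.68-fold lower in that rat, RT1-Da 3.39-fold lower and RT1-Ba 3.04-fold lower. These are differences that few genes matched: 2.98%, 3.38% and 3.89% of the genes tested lay as far or further below in that library. It was the library with the lowest value for 26.6% of all genes tested. Depth was not the same in all rats, and the levels are given with it. Cd74 lay between 238 and 299 CPM in the 3 deeper libraries and between 65.4 and 240 CPM in the 3 shallower ones. RT1-Da lay between 59.5 and 86.4 CPM and between 18.7 and 63.4 CPM, and RT1-Ba between 6.67 and 25.2 CPM and between 4.75 and 22.1 CPM. The deeper and the shallower libraries thus overlapped for all 3 genes, whereas they were separate for 15.5% of the genes tested. With a term for this split the log2 fold change was -0.06 for Cd74, -0.23 for RT1-Da and -0.79 for RT1-Ba (adjusted p = 0.9998 for each, edgeR). The part of depth in the levels was not tested further.

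With all 6 libraries, Pearson's r was highest for Cd74 and RT1-Da, whereas Spearman's rho was highest for Cd74 and RT1-Ba. On log2 CPM with a prior count of 2, Pearson's r was 0.924 (two-sided exact permutation test over the pairings of 6 libraries, p = 0.060, adjusted p = 0.16 over the 3 pairs of genes). Spearman's rho was 0.371 (exact permutation p = 0.50, adjusted p = 0.75). For Cd74 and RT1-Ba, r was 0.665 (exact permutation p = 0.11, adjusted p = 0.16) and rho was 0.657 (exact permutation p = 0.17, adjusted p = 0.53). For RT1-Da and RT1-Ba, r was 0.478 (exact permutation p = 0.39, adjusted p = 0.39) and rho was -0.029 (exact permutation p = 1.0, adjusted p = 1.0). None of the 3 pairs passed the threshold with all 6 libraries.

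The values of Pearson's r depended on treated replicate 2, and in the pairs with RT1-Ba on treated replicate 3 as well. Spearman's rho was not computed again with libraries left out. Without the 2 libraries farthest from the median of Cd74, which were treated replicate 2 and injury model replicate 3, r was 0.17 for Cd74 and RT1-Da and -0.21 for Cd74 and RT1-Ba (n = 4). Without the 2 farthest for RT1-Da, treated replicates 2 and 3, r was -0.69 for RT1-Da and RT1-Ba (n = 4). Leaving out treated replicate 2 alone gave 0.23, -0.02 and -0.87 for the 3 pairs in the same order (n = 5). Leaving out treated replicate 3 instead gave 0.92, 0.97 and 0.82, and for Cd74 and RT1-Ba the adjusted p was then 0.025 (exact permutation test, n = 5). The relation of Cd74 with RT1-Ba thus passed the threshold in the absence of 1 rat and was near 0 in the absence of another.

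**Figure D3:**
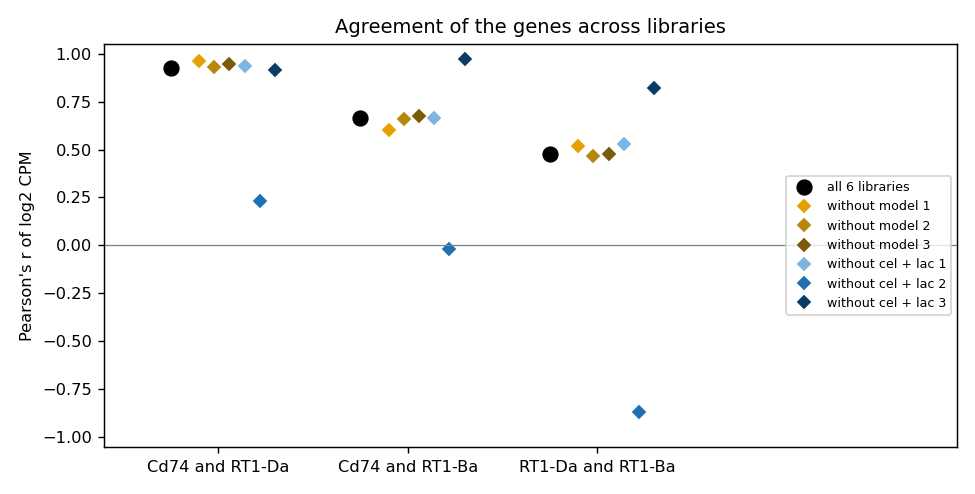
Pearson's r of log2 CPM across libraries (y axis, from -1 to 1) for each pair of genes, with all 6 libraries (black) and without each library in turn (diamonds). Leaving out treated replicate 2 brought r to 0.23, -0.02 and -0.87, and leaving out treated replicate 3 raised it to 0.97 and 0.82 in the pairs with RT1-Ba.

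Set against the rest of the table, the agreement of Cd74 and RT1-Da was high but shared with many genes. RT1-Da ranked 362 among the 15121 other genes by r with Cd74, so that 2.39% of them had an r at least as high. RT1-Ba ranked 2562 by r with Cd74 (16.9%) and 4054 by r with RT1-Da (26.8%). After the mean of each group was subtracted, r was 0.915 for Cd74 and RT1-Da, 0.612 for Cd74 and RT1-Ba, and 0.339 for RT1-Da and RT1-Ba. At least as high an r after this subtraction was found for 4.05%, 21.3% and 34.1% of genes, taken with the first gene of each pair. In the injury model group alone the order of the rats differed between Cd74, highest in replicate 1, and RT1-Da, highest in replicate 2. Without treated replicate 2, 31.9% of genes had an r with Cd74 at least as high as that of RT1-Da.

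**Figure D4:**
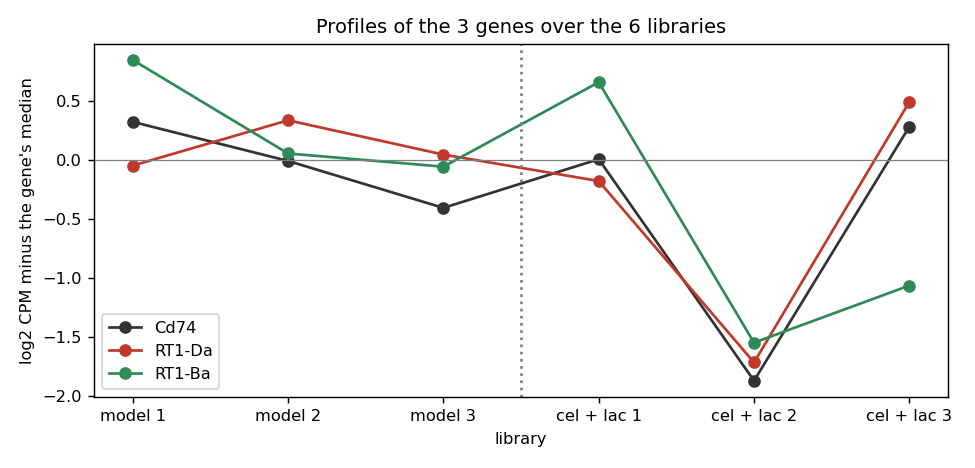
Log2 CPM of each gene minus its own median (y axis) in the 6 libraries (x axis; lines join the values of 1 gene and the libraries have no order). All 3 genes dip by more than 1.5 log2 units in treated replicate 2, and RT1-Ba alone is low in treated replicate 3.

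Ratios of counts within a library do not depend on how the libraries are scaled, and they are compared here between libraries only, since counts of different genes are not levels per length. Over all 6 libraries, the ratio of the invariant chain to the alpha chain of the D molecule had the smallest range of the 3 ratios. Cd74 had 5.04, 3.07 and 2.85 counts per RT1-Da count in the injury model replicates and 4.43, 3.50 and 3.37 in the treated replicates, a 1.77-fold range. Treated replicate 2, in which both genes were low, lay inside this range.

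The ratios to the alpha chain of the B molecule were highest in treated replicate 3. Cd74 had 11.9, 16.4 and 13.4 counts per RT1-Ba count in the injury model replicates and 10.9, 13.8 and 43.7 in the treated replicates. Treated replicate 3 stood apart with 43.7, and the range was 4.02-fold over all libraries and 1.51-fold over the other 5. Over those 5 libraries the range of Cd74 to RT1-Da was wider, at 1.77-fold. RT1-Da had 2.36, 5.33 and 4.71 counts per RT1-Ba count in the injury model replicates and 2.45, 3.93 and 12.97 in the treated replicates, a 5.50-fold range that was 2.26-fold over the other 5 libraries. In treated replicate 3, RT1-Ba was thus low relative to both other class II genes, whereas in treated replicate 2 all 3 genes were low together.

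All 3 ratios overlapped between the groups. The difference of the mean log2 ratio was below the SD of either group, except for Cd74 to RT1-Ba. For that ratio it exceeded the SD among injury model rats (0.234) but not the SD among treated rats (1.07). The treated minus injury model difference of the mean log2 ratio was 0.08 for Cd74 to RT1-Da (two-sided exact permutation test, p = 0.7). It was 0.44 for Cd74 to RT1-Ba (exact permutation p = 0.8) and 0.36 for RT1-Da to RT1-Ba (exact permutation p = 0.8). After adjustment over the 3 ratios each p was 0.8, and 3 rats against 3 allow no p below 0.1.

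**Figure D5:**
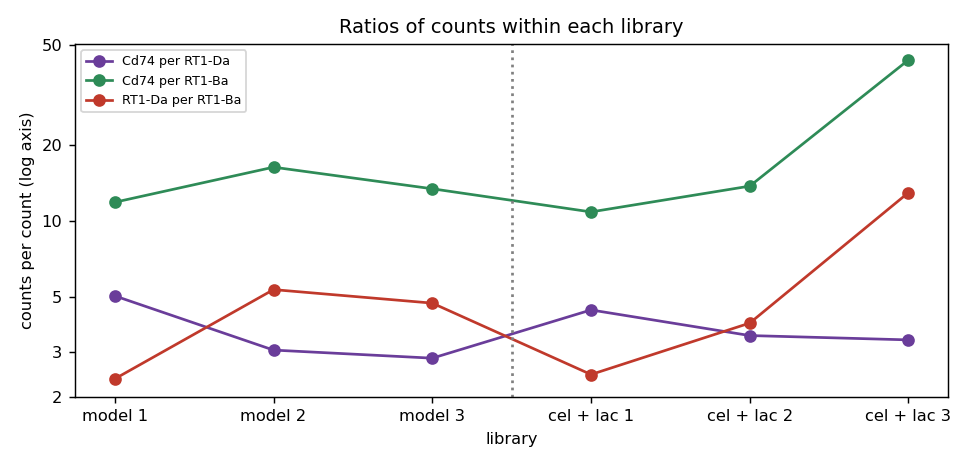
Counts of 1 gene per count of another within each library (y axis, log axis; x axis, libraries, which have no order). The ratio of Cd74 to RT1-Da stays between 2.85 and 5.04, and both ratios to RT1-Ba are highest in treated replicate 3, at 43.7 and 12.97.

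The class II genes of the rat are polymorphic between strains and belong to a family of related genes. The alignment was to a reference genome, and how reads that match several genes were counted is not given in the sources used here, so the counts of RT1-Da and RT1-Ba in single rats are uncertain to that extent. The part of sequence differences between rats in the ratio of treated replicate 3 was not tested.

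Among 13618 genes with a mean of at least 1 CPM, 533 (3.91%) had an r of at least 0.9 with the mean profile of Cd74, RT1-Da and RT1-Ba over the 6 libraries. A similar share, 590 genes (4.33%), had an r of -0.9 or lower. The members, which make up this profile, had an r with it of 0.969 (Cd74), 0.899 (RT1-Da) and 0.802 (RT1-Ba). The most alike was ENSRNOG00000028896 (r = 0.995, n = 6), with 469, 434 and 254 counts in the injury model replicates and 366, 83 and 425 counts in the treated replicates. The next was ENSRNOG00000027088 (r = 0.995, n = 6), with 1784, 2010 and 1343 counts in the injury model replicates and 1403, 1071 and 2019 in the treated ones. Both were at their lowest in treated replicate 2, like the class II genes. The most opposite, ENSRNOG00000000151 (r = -0.996, n = 6), had its highest count, 773, in that library against 433 to 642 in the others.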

How the data were processed

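Messenger RNA was measured in tendons of 3 libraries of the tendon injury model group and 3 of the celecoxib + lactoferrin treatment group, grouped by their labels. Columns of treated rats were matched by the group name in the heatmaps of the study. By the methods, 3 rats per group were sampled on day 14; the labels do not say that each library is a separate rat.

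After Illumina sequencing and removal of low-quality reads, the authors aligned with HISAT2 to Rnor_6.0 and deposited raw counts per Ensembl gene ID. The submitters' processing notes instead list GRCh38.p13, a human build, although the gene IDs are those of the rat. The counting tool, its strand setting and its treatment of multi-mapping reads are not given in the sources used here.

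The test was made with edgeR 4.0.16 under R 4.3.3 (quasi-likelihood, robust, TMM, filterByExpr, Benjamini-Hochberg over 15122 genes). DESeq2 1.42.0 and limma 3.58.1 were alternatives, as were other normalizations, filters, a depth term, a replicate block and each rat left out. The test was checked on simulated counts. Correlations and ratios used exact permutation tests.

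The genes, the lists and the tests were chosen with earlier results of these data known. The named genes are the members and, by ID only, the genes with the most similar and most opposite profiles. The reference table paired 0 of the 22250 IDs with a symbol, so lists of other pathway genes and cell type markers were not analysed here; the symbols of the members came with their IDs.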

Additional observations from a re-analysis of the deposited data

How the results depend on the processing

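Under 14 alternatives the log2 fold change of RT1-Ba stayed below 0 in all, and those of Cd74 and RT1-Da in 13 each; the exceptions were 0.15 and 0.072 without celecoxib + lactoferrin replicate 2. No adjusted p-value of the 3 genes was under 0.05 in any of them, and the lowest was 0.82 (edgeR). With 1 rat left out in turn the log2 fold change ran from -0.65 to 0.15 for Cd74, from -0.88 to 0.072 for RT1-Da and from -1.63 to -0.31 for RT1-Ba. Over the same 6 fits r ran from 0.23 to 0.96 for Cd74 and RT1-Da, from -0.019 to 0.97 for Cd74 and RT1-Ba, and from -0.87 to 0.82 for RT1-Da and RT1-Ba, and other scalings or prior counts left each r on its side of the threshold. The difference of log2 ratios ran from -0.072 to 0.34 for Cd74 to RT1-Da, from -0.17 to 0.83 for Cd74 to RT1-Ba, and from -0.33 to 0.87 for RT1-Da to RT1-Ba.

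Over the whole table, 395 genes had an unadjusted p-value under 0.05 and 1 an adjusted one. The depth term gave 223 and the fits without 1 rat gave 226 to 890. Adjusted counts were 26 with DESeq2, 3 with voom, 3 without a low-count filter, 0 where every sample needed 10 counts (beside 407 unadjusted), 0 with the replicate block (beside 326 unadjusted) and 1 to 9 without 1 rat; the cause was not tested.

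With the replicate block the log2 fold change was -0.49 for Cd74, -0.55 for RT1-Da and -0.93 for RT1-Ba, and RT1-Ba had an unadjusted p of 0.027 (adjusted p = 0.995, edgeR). The correlation of deviations from group means, across genes, ran from -0.27 to 0.057 for the 3 same-numbered pairs of libraries. For the 6 other pairs it ran from -0.305 to 0.301. So few pairs cannot decide whether the numbers pair the rats. The mean differences of the log2 ratios are equal with and without the block by construction. Counts of called genes in the lists of pathway genes and markers were not run, since their IDs were not paired with symbols.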
